A study of Mus musculus with 11 samples.

Results

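The named ribosomal protein pseudogenes of the mouse are the genes whose symbol starts with Rpl or Rps and holds -ps. Of the 54418 genes in the count table, 290 carried such a symbol in the GENCODE annotation of GRCm38, and all 290 are accounted for here. The symbol before -ps gave the parent, the ribosomal protein gene that the copy derives from. There were 62 parents. Rps2, which lies on chromosome 17, had 11 copies, 20 copies came from other parents on chromosome 17, 258 came from parents on other chromosomes, and 1 had a parent symbol that matched no gene of the table. The annotation classed 277 of the 290 as processed pseudogenes, 7 as transcribed processed pseudogenes and 6 as protein-coding.

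The thymocytes (T cells in development) of 4 wt, 4 Zmat3-/- and 3 Puma-/-p21-/-Zmat3-/- mice, called TKO, gave the RNA. All mice were 8 to 12 weeks old and on a C57BL/6-WEHI background, and the TKO mice came from serial inter-crosses of Zmat3-/- with Puma-/-p21-/- mice. The Zmat3 deletion was therefore common to both mutant groups, and the losses were present in every cell of the mouse. The authors deposited estimated counts per gene. The comparisons asked which transcripts differed between TKO and wt, between TKO and Zmat3-/-, and between Zmat3-/- and wt thymocytes, and the mice of each genotype entered 2 of these 3 comparisons.

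Ribosomal proteins form the small subunit (Rps genes) and the large subunit (Rpl genes) of the ribosome, the machine that translates mRNA into protein. Their mRNAs are among the most abundant in growing cells, and reverse transcription of spliced mRNAs has left many intronless copies of them in mammalian genomes, called processed pseudogenes or retrocopies. A copy holds the exons of its parent joined together, lacks the parent's promoter and collects mutations over time. A sequencing read from a stretch that is the same in copy and parent could come from either, and a quantifier such as Salmon divides such reads between them by its own estimates, so counts of near-identical copies are uncertain.

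The likeness of copy and parent is shown for a copy with and a copy without counts of note in TKO thymocytes. Positions are counted from 1 at the A of the start codon of Rps2, and capitals mark bases that differ from Rps2. Rps2-ps6 (14:76236691-76237545, minus strand, GRCm38) carried T204C, T285C and G300A in the stretch from coding position 151 to 300, and Rps2-ps13 (X:52898588-52899469, plus strand) carried T204C and G300A.
Rps2: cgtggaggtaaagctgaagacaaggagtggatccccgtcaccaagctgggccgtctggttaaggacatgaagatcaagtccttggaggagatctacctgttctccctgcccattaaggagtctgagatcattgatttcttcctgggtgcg
Rps2-ps6: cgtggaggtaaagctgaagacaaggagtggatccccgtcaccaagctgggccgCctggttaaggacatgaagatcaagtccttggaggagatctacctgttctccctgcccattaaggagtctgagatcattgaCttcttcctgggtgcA
Rps2-ps13: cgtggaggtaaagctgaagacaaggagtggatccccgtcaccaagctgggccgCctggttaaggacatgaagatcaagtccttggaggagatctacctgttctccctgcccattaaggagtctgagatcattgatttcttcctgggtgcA

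The most counted kind of copy, by contrast, held no base that set it apart. Rps23-ps1 (3:37714740-37715164, plus strand, opposite to an exon of Gm5148) was identical to Rps23 (13:90922958-90924950), which encodes a protein of the small subunit, over its whole transcript. The first 150 coding bases of both are shown, with no capitals because no base differed.
Rps23: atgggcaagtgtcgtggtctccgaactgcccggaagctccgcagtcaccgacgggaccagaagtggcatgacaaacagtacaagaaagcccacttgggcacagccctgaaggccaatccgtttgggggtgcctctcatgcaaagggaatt
Rps23-ps1: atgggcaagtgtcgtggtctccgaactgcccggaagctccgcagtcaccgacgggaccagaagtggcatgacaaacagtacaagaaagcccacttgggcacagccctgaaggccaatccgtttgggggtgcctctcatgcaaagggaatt

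The libraries held 17669715 to 80207003 counts, and 3 counts, taken as the floor, corresponded to 0.0403 to 0.167 CPM, the count scaled to the normalized library size. The 290 copies took 0.122% to 0.353% of the counts of a mouse, and the 79 functional ribosomal protein genes took 3.19% to 8.76%. The wt mice fell into separate levels for these genes: the functional genes summed to 68450 to 91180 CPM in wt mice 1 and 2 and to 28750 to 29600 CPM in wt mice 3 and 4, with the mutant mice between them at 40760 to 48000 CPM. Results against wt are therefore also given without wt mice 1 and 2 and without wt mice 3 and 4, a choice made after the data were seen. Xist was at 505 to 1485 CPM in 5 mice (wt 1 and 2, Zmat3-/- 1 and 2, TKO 1) and between 0.806 and 2.54 CPM in all others, and the labels give no sex. All 11 thymocyte markers were detected in every mouse, with sums of 12790 to 19170 CPM. The 6 erythroid markers varied most between mice, with sums of 880 to 8558 CPM in wt, 1152 to 5705 CPM in Zmat3-/- and 2676 to 3720 CPM in TKO mice, and their part in the results was not tested.

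The targeted genes were counted in every library. Zmat3 was at 9.88, 12.2, 26.8 and 26.8 CPM in wt mice 1 to 4, at 5.67, 5.34, 6.42 and 6.85 CPM in Zmat3-/- mice and at 8.05, 7.78 and 8.25 CPM in TKO mice, so both mutant groups lay below wt without overlap. Cdkn1a, which encodes p21, was at 2.49 to 3.52 CPM in TKO and 4.77 to 8.53 CPM in Zmat3-/- mice, and at 3.53 to 10.4 CPM in wt mice, the lowest of which (wt mouse 3) lay practically at the level of the highest TKO mouse. Bbc3, which encodes PUMA, was at 12.9 to 15.2 CPM in TKO, 15.3 to 19.8 CPM in Zmat3-/- and 16.8 to 20.1 CPM in wt mice. These counts cover whole genes, and reads outside a deleted part do not check the label.

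Few of the 290 copies held more than scattered counts. No count was listed for 83 copies in any mouse, 85 never exceeded 3 counts in a mouse, 105 went above 3 counts but stayed under the filter of the test, and 17 were tested in at least 1 comparison. To be tested, a gene needed 20 counts after scaling to the smallest library, in a number of mice equal to the smaller group. The 17 tested copies took 99.0% of all counts of the 290, and the 10 with the highest mean CPM took 97.4%. Counts in all 11 mice were found for 50 copies.

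Copies that held counts were more like their parents than copies that held none, as a description over copies that share parents. Likeness was measured as the share of a copy's 31-base words that also occurred in a transcript of the parent. Its median was 5.14% for the 82 copies without counts and a matched parent, 21.6% for those with at most 3 counts in a mouse, 63.1% for those above 3 counts but under the filter, and 100% for the tested copies. For 13 copies every word lay in the parent. Of these, 9 were tested and took 65.7% of the counts of the 290, and the other 4 (Rpl10-ps1, Rpl38-ps2, Rps13-ps2 and Rps6-ps4, named after their values were seen) had 0 counts in all 11 mice. A whole match to the parent thus went with 6007 to 99116 counts over the 11 mice or with none.

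**Figure D1:**
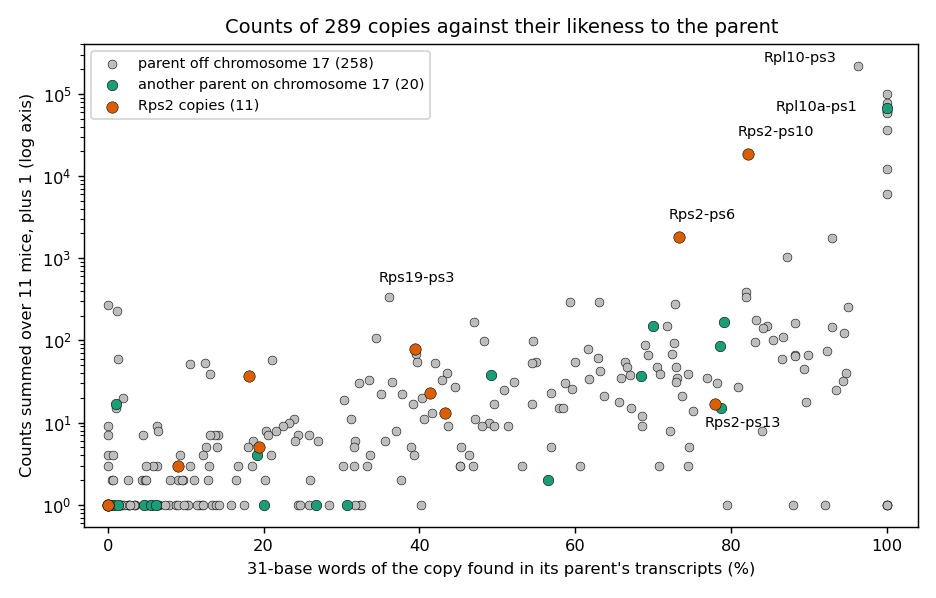
Counts summed over 11 mice plus 1 (log axis) against the percentage of a copy's 31-base words found in transcripts of its parent, for the 289 copies with a matched parent; grey points are copies of parents off chromosome 17, green points are copies of other parents on chromosome 17 and orange points are Rps2 copies. Of the 17 tested copies 9 lie at 100%, and among the others only Rpl10-ps3 has more counts than Rps2-ps10 and Rps2-ps6.

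The 10 copies with the highest mean CPM came from proteins of both subunits. Per length (mean CPM over 11 mice per kb of annotated exon), Rpl10-ps3 stood first at 726 CPM per kb, followed by Rps23-ps1 at 604, Rps16-ps2 at 452, Rpl31-ps8 at 431, Rpl28-ps1 at 360, Rpl10a-ps1 at 263, Rpl15-ps3 at 247, Rpl27-ps3 at 227, Rps12-ps3 at 66.3 and Rps2-ps10 at 39.5 CPM per kb. On the same scale 8 of these 10 copies lay above their own parent, whose annotated exons also include alternative ends. Rps12, at 308 CPM per kb, and Rps2, at 385 CPM per kb, lay above their copies. Rps2-ps10 was among the 10 through the TKO mice, which held 96.0% of its counts, and per length Rpl36a-ps2, outside the 10, lay above it at 50.5 CPM per kb. Over the 11 mice each copy overlapped with the next in this order.

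Rpl10-ps3 (9:50344201-50344968, annotated as protein-coding) was the extreme case. It had 998, 829, 373 and 297 CPM in wt mice 1 to 4, 566, 573, 451 and 492 CPM in Zmat3-/- mice and 523, 528 and 507 CPM in TKO mice. Its parent Rpl10 (X:74270812-74273135), a protein of the large subunit, had 102 to 182 CPM over the 11 mice, below the copy in each mouse. The coding part of Rpl10-ps3 aligned to Rpl10 with 0 substitutions, and 96.2% of its words lay in the parent. The groups of mice overlapped.

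For 7 abundant copies, the part of a family's counts that went to the copy varied less over the mice than the level of the copy. Rps23-ps1 took 44.0% to 49.0% of the counts of Rps23 plus Rps23-ps1 over the 11 mice, and Rps16-ps2 took 25.1% to 31.3% of its pair. Rpl15-ps3 took 20.4% to 29.3%, Rpl27-ps3 19.4% to 29.9%, Rpl28-ps1 26.2% to 35.7%, Rpl31-ps8 26.1% to 38.7% and Rpl10-ps3 66.2% to 90.3%. The transcript of Rpl27-ps3 was also that of another gene, Gm11518, which is not part of its pair here. For each of these 7 copies the TKO and Zmat3-/- mice overlapped. Against wt, all TKO mice lay below all wt mice for Rpl31-ps8 and all Zmat3-/- mice below all wt mice for Rpl15-ps3, both by small margins beside the gap in the Rps2 family.

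**Figure D2:**
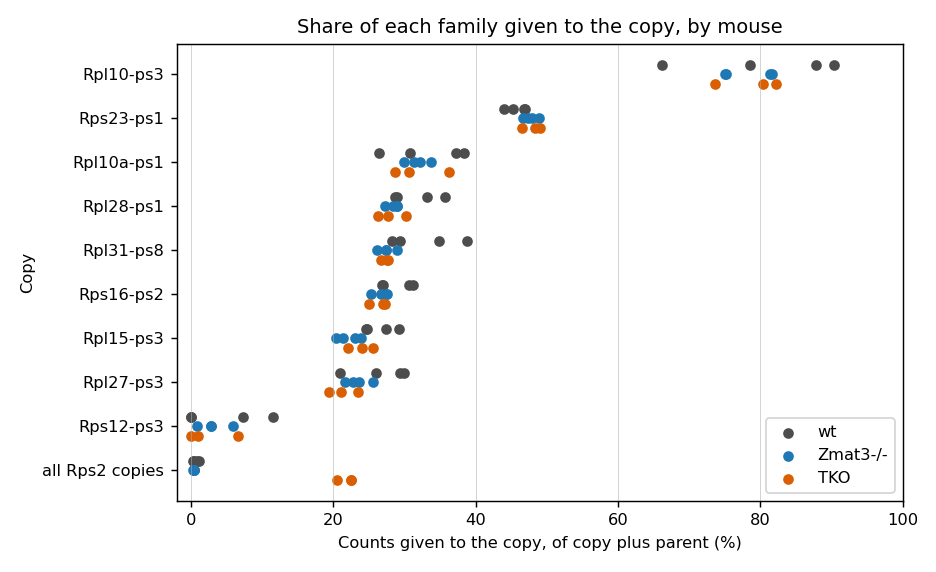
Percentage of the counts of copy plus parent that was given to the copy, with a point for each of the 11 mice, coloured by genotype, with the 11 copies of Rps2 summed. In the Rps2 family the 3 TKO mice lie at 20.5% to 22.5% and the other 8 mice at 0.317% to 1.07%, while TKO and Zmat3-/- mice overlap in the other families plotted.

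Some copies were counted erratically. Rps12-ps3 (19:59322290-59322783), an exact copy of Rps12 that is annotated as protein-coding, had 5516, 2801, 0 and 0 counts in wt mice 1 to 4, 1682, 565, 493 and 106 in Zmat3-/- mice and 213, 710 and 0 in TKO mice. Its share of its pair went from 0% to 11.6%, and each genotype included a mouse at under 1%. Rps13-ps1 (8:87047689-87048226, named after its values were seen) had 17.5 and 10.4 CPM in Zmat3-/- mice 3 and 4, 3.00 CPM in wt mouse 2, 1.73 CPM in TKO mouse 3 and 0 in the other 7 mice. Rpl36a-ps2 (3:145879020-145879340, also named after its values were seen), another exact copy, took 4.92% to 17.97% of its pair in wt mice, against 2.23% to 4.82% in those lacking Zmat3 alone and 5.59% to 8.80% in TKO mice. All TKO mice lay above all Zmat3-/- mice and inside the range of wt mice.

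Rps2-ps10 was the copy with the largest difference between TKO and Zmat3-/- thymocytes among the tested copies. It lies on chromosome 18, on the strand opposite to an intron of Pde6a, and is annotated as a transcribed processed pseudogene. It had 4.89, 2.91, 3.57 and 4.08 CPM in wt mice 1 to 4, 2.50, 1.92, 1.42 and 2.16 CPM in Zmat3-/- mice, and 124, 131 and 140 CPM in TKO mice. All TKO mice were far above all other mice. The mean of TKO mice, 132 CPM, was 34.2 times that of wt mice (3.86 CPM) and 66.0 times that of Zmat3-/- mice (2.00 CPM). In edgeR's quasi-likelihood test with Benjamini-Hochberg adjustment, the log2FC was 5.05 ± 0.20 (SE) against wt (adjusted p = 7.16e-05) and 5.98 ± 0.14 against Zmat3-/- (adjusted p = 6.41e-09). The two-sided exact permutation test gave p = 0.0286 in each comparison, the smallest value that 3 mice against 4 allow. Without wt mice 1 and 2 the log2FC against wt was 5.04, and without wt mice 3 and 4 it was 5.07. Pde6a itself was at 0.385 to 1.09 CPM in the wt mice, and the Zmat3-/- mice had 1.14 to 1.79 CPM and the TKO mice 0.556 to 1.53 CPM, so the TKO mice overlapped with both other groups and all Zmat3-/- mice lay above all wt mice. The library kit's strand setting is not given in the sources used here, so reads of overlapping genes cannot be told apart.

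Rps2-ps6, which overlaps no annotated gene, showed the same pattern at a lower level. Counts were 15, 15, 2 and 6 in wt mice 1 to 4, 14, 10, 8 and 7 in Zmat3-/- mice and 488, 230 and 1011 in TKO mice. In CPM these were 0.456, 0.373, 0.0830 and 0.231 in wt, 0.327, 0.326, 0.265 and 0.291 in Zmat3-/- and 12.3, 12.8 and 13.6 in TKO mice, again without overlap. The log2FC was 5.39 ± 0.43 (SE) against wt (edgeR, adjusted p = 0.00243) and 5.34 ± 0.18 against Zmat3-/- (adjusted p = 1.30e-07). It passed the filter only through the TKO mice and was not tested between Zmat3-/- and wt, so a difference in the TKO comparisons was a condition of its entry. Without wt mice 1 and 2 its log2FC against wt was 6.25, and without wt mice 3 and 4 it was 4.94. Rps2-ps10 held 10.1, 10.3 and 10.3 counts for each count of Rps2-ps6 in the TKO mice, 10.7, 7.80, 43.0 and 17.7 in wt mice 1 to 4 and 5.38 to 7.64 in Zmat3-/- mice, the last 2 groups on few counts of Rps2-ps6.

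**Figure D3:**
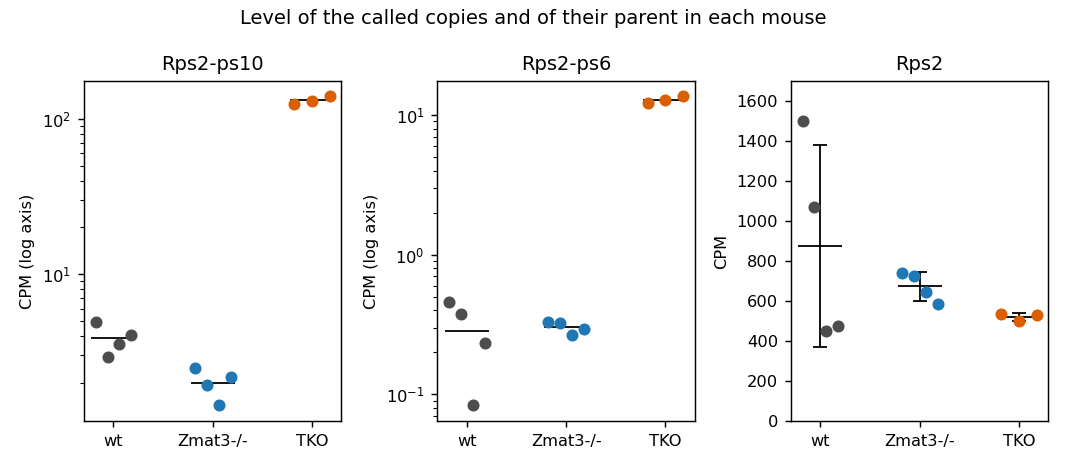
CPM of Rps2-ps10 and Rps2-ps6 (log axes) and of their parent Rps2 (linear axis from 0), with a point for each mouse and a line at the mean of each genotype (n = 4 wt, 4 Zmat3-/- and 3 TKO); bars for Rps2 are ± 1 SD. In the mean of TKO mice the copies are 34.2 and 45.1 times higher than in wt, and Rps2 is not higher.

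These 2 copies were the only members called in TKO thymocytes at an adjusted p under 0.05 and an absolute log2FC above 1.5. In TKO against wt, 2 of 15 tested members were called, and 0.241% of all 13275 tested genes. In TKO against Zmat3-/-, 2 of 14 tested members were called, and 0.122% of all 13132 tested genes. Since Rps2-ps6 entered through its level in TKO mice, these counts over tested members are a description and no support. DESeq2 called the same 2 members in both comparisons. With wt mice 3 and 4 left out, Rpl28-ps1 was called as well in TKO against wt (log2FC -1.54, edgeR, adjusted p = 0.000985).

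The other 9 Rps2 copies did not share the pattern. They summed to 13, 11, 11 and 22 counts in wt mice 1 to 4, 18, 14, 11 and 9 in Zmat3-/- mice and 21, 9 and 30 in TKO mice, which was 0.273 to 0.846, 0.364 to 0.456 and 0.403 to 0.528 CPM, so the genotypes overlapped. Rps2-ps11 (9:108358202-108359069, opposite to Usp4) had 1 to 18 counts in a mouse, Rps2-ps9 (17:27784379-27785246, the only Rps2 copy on the chromosome of its parent, opposite to D17Wsu92e) 0 to 11, and Rps2-ps5 (14:69158671-69159519) 0 to 6. Rps2-ps13 and Rps2-ps7 never had more than 3 counts, Rps2-ps4 never more than 2 and Rps2-ps2 never more than 1. Rps2-ps12 and Rps2-ps3 had 0 counts in every mouse, a count that allows at most the floor of 0.0403 to 0.167 CPM.

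The called copies were among the Rps2 copies most like Rps2, but likeness did not fully separate them from the rest. Of the words of Rps2-ps10, 82.1% lay in Rps2 transcripts and 97.2% in a transcript of any gene besides the copy itself, Rps2 included, and for Rps2-ps6 these shares were 73.3% and 93.9%. Rps2-ps13 lay between them with 77.9% and 94.5%, yet it had 16 counts in all 11 mice against 18448 for Rps2-ps10 and 1806 for Rps2-ps6. Every Rps2 copy besides these 3 was less alike, with 43.3% of its words in Rps2 transcripts (Rps2-ps7) or fewer. Against the coding sequence of Rps2, Rps2-ps10 carried 5 substitutions and Rps2-ps6 and Rps2-ps13 carried 7 each. With gaps counted as differences, identity over the whole alignment was 99.4% for Rps2-ps10, 96.5% for Rps2-ps6 and 99.2% for Rps2-ps13. All 5 substitutions of Rps2-ps10 were also found in Rps2-ps13, 3 of them in Rps2-ps6, and 3 were common to these 3 copies. Over all parents, 27 copies without a whole match had a likeness of at least 82.1%, and 4 of them were tested, with Rps2-ps10 itself included in both numbers.

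Rps2, which encodes a protein of the small subunit, was itself not called. It had 1499, 1069, 450 and 477 CPM in wt mice 1 to 4, 740, 723, 646 and 584 CPM in Zmat3-/- mice and 533, 497 and 532 CPM in TKO mice. Every TKO mouse lay below every Zmat3-/- mouse, with a log2FC of -0.42 ± 0.10 (SE) that did not pass (edgeR, adjusted p = 0.376; two-sided exact permutation p = 0.0571). Over the alternatives it was -0.47 to -0.35, and DESeq2 alone among them gave an adjusted p under 0.05 (0.00574), short of the threshold on the log2FC. Against wt the TKO mice overlapped with the wt mice, and the log2FC of -0.78 ± 0.43 (adjusted p = 0.562) turned to 0.11 without wt mice 1 and 2 and was -1.32 without wt mice 3 and 4. The CPM of Rps2 plus its 11 copies was 666 ± 22.0 (SD, n = 3) in TKO mice and 676 ± 72.3 (n = 4) in Zmat3-/- mice, with the range of TKO mice (642 to 686) inside that of Zmat3-/- mice (587 to 743). In wt mice this sum was 878 ± 505.5 (n = 4), with a range of 454 to 1505. All 11 copies took 21.8% ± 1.15 of the counts of Rps2 plus its copies in TKO mice, 0.401% ± 0.0719 in Zmat3-/- mice and 0.671% ± 0.370 (n = 4) in wt mice. With counts divided by exon length these shares were 34.9%, 0.784% and 1.29%.

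Rps2 (17:24718116-24721929) lies 4.37 Mb from Cdkn1a (17:29090976-29100727), a gene deleted in TKO but not in Zmat3-/- mice, and copies of the other parents on chromosome 17 were therefore set beside its own. Rpl10a lies 0.760 Mb from Cdkn1a, Rps10 1.45 Mb, Rps18 4.85 Mb, Rpl7l1 17.7 Mb and Rpl36 27.5 Mb. Of their 20 copies, only Rpl10a-ps1 (1:64993951-64994604) was tested, an exact copy of a large subunit gene. It had 366, 282, 108 and 93.3 CPM in wt mice 1 to 4, 156, 149, 137 and 153 CPM in Zmat3-/- mice and 128, 148 and 172 CPM in TKO mice. TKO and Zmat3-/- mice overlapped, with a log2FC of -0.05 ± 0.08 (SE; edgeR, adjusted p = 0.983). Its share of the counts of its pair was 28.7% to 36.2% in TKO, 29.9% to 33.7% in Zmat3-/- and 26.4% to 38.3% in wt mice, also with overlap.

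The remaining 19 copies of these parents had at most 29 counts in any mouse. Rps18-ps3 had 5 to 29 counts, Rpl36-ps12 1 to 29, Rps10-ps2 1 to 17, Rps18-ps1 0 to 11, Rps10-ps1 0 to 8 and Rps10-ps4 0 to 4. Rpl36-ps2 had at most 3 counts in a mouse, and Rpl10a-ps2 and Rpl36-ps3 at most 1. The last 10 (Rpl10a-ps3, Rpl36-ps1, Rpl36-ps4, Rpl36-ps7, Rpl36-ps8, Rpl36-ps9, Rpl36-ps10, Rpl7l1-ps1, Rps10-ps3 and Rps18-ps2) had no counts. None of the 19 passed the filter of the test.

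Among copies of parents off chromosome 17, the Rps2 pattern was not seen. In TKO against Zmat3-/- the 11 tested copies had log2FC from -3.39 to 0.63 with a median of -0.15, beside -0.01 for all tested genes. By edgeR 0 of the 11 passed an adjusted p under 0.05 and 0 had an unadjusted p under 0.05, beside 591 of all 13132 tested genes. DESeq2 called none of the 11. The lowest value was that of Rps13-ps1 (-3.39 ± 1.72 (SE), adjusted p = 0.983), which rested on 2 Zmat3-/- mice, and the next was Rps12-ps3 (-0.47 ± 1.19). The other 9 lay between -0.23 and 0.63. Rps23-ps1, at -0.15 ± 0.11, and Rpl15-ps3, at -0.06 ± 0.13, had errors far smaller than the log2FC of the Rps2 copies.

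In TKO against wt, all 12 tested copies of parents off chromosome 17 had log2FC below 0, from -1.97 to -0.26 with a median of -0.49, and none passed (lowest adjusted p = 0.545 by edgeR, 0 with an unadjusted p under 0.05, and 0 called by DESeq2). The direction depended on which wt mice were in the fit. Without wt mice 1 and 2, 9 of the 12 lay above 0 and 2 (Rpl10-ps3 and Rpl15-ps3) had an adjusted p under 0.05 by edgeR, both above 0. Without wt mice 3 and 4 all 11 that could be tested lay below 0 and 8 of them had an adjusted p under 0.05 by edgeR. In these fits 245 and 676 of all genes were called. How many of all genes passed the adjusted p alone is not given here, so the counts of 2 and 8 are a description. The 79 functional ribosomal protein genes moved alongside: their median log2FC was -0.41 with all wt mice, 0.46 without wt mice 1 and 2 and -0.95 without wt mice 3 and 4.

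**Figure D4:**
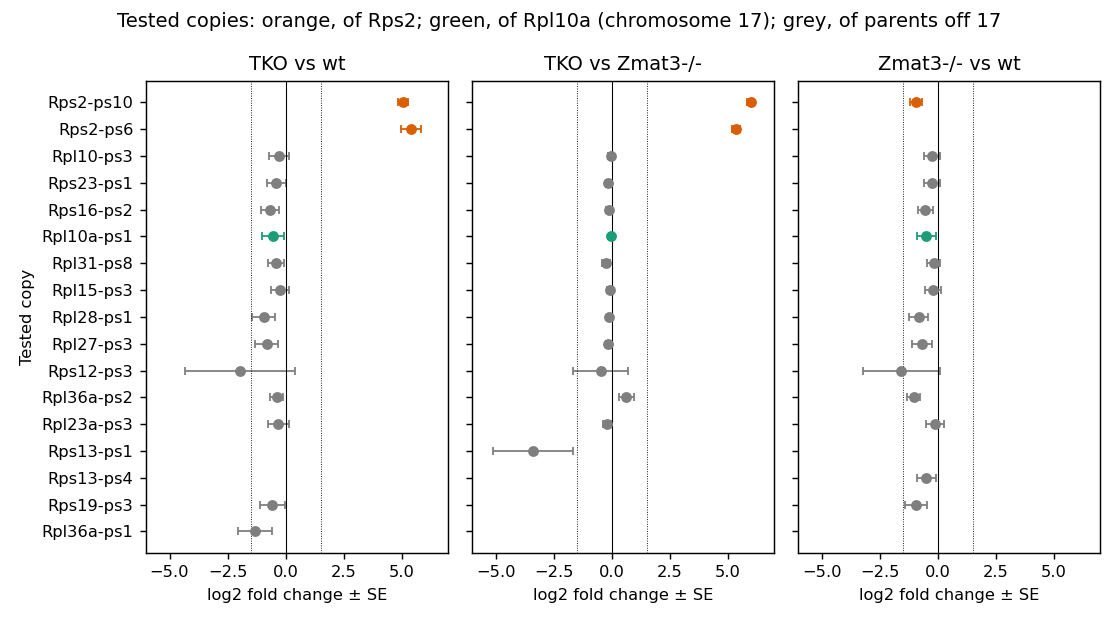
log2FC ± SE from edgeR for each tested copy in TKO against wt, TKO against Zmat3-/- and Zmat3-/- against wt; orange marks Rps2 copies, green the copy of Rpl10a and grey copies of parents off chromosome 17, and dotted lines stand at ± 1.5. The Rps2 copies lie between 5.05 and 5.98 in the TKO comparisons, and the other copies lie on or left of 0 except for Rpl36a-ps2 in TKO against Zmat3-/-.

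Between Zmat3-/- and wt thymocytes no copy was called. By edgeR 0 of 14 tested members were called, beside 0.319% of all 13480 tested genes (43 genes, or 8 with the replicate number as a block). An unadjusted p under 0.05 was found for 2 of the 14 members, a share like that of all genes (2175 of 13480). DESeq2 also called 0, but gave both members an adjusted p under 0.05. These were Rps2-ps10, with a log2FC of -0.94 ± 0.25 (SE; edgeR, adjusted p = 0.124; DESeq2, adjusted p = 0.0123), and Rpl36a-ps2, with -1.04 ± 0.29 (edgeR, adjusted p = 0.138; DESeq2, adjusted p = 0.0173). For both copies the 4 Zmat3-/- mice all lay below the 4 wt mice, which for Rps2-ps10 was opposite in direction to its difference in TKO mice. The shares of all genes that passed by DESeq2, or had no overlap between these groups, are not given here. Taken as 4 pairs of the same replicate number, the two-sided exact sign-flip permutation p was 0.125 for each copy, the smallest that 4 pairs allow. The blocked edgeR fit gave a log2FC of -0.94 for Rps2-ps10 (adjusted p = 0.221) and -1.10 for Rpl36a-ps2 (adjusted p = 0.191). The log2FC of Rps2-ps10 was -0.95 without wt mice 1 and 2 (edgeR, adjusted p = 0.0219) and -0.94 without wt mice 3 and 4 (adjusted p = 0.0236), still short of 1.5. Of the 12 tested copies of parents off chromosome 17, 9 lay above 0 without wt mice 1 and 2 and 9 had an adjusted p under 0.05 by edgeR, while without wt mice 3 and 4 all 12 lay below 0 and 11 had an adjusted p under 0.05. Of these 12 only Rps12-ps3 was called in either fit, while 439 and 733 of all genes were called. How many of all genes passed the adjusted p alone in these fits is not given here, so the counts of 9 and 11 are a description.

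Most abundant copies varied among wt mice as the functional genes did. Of the top 10 copies, the 8 other than Rps2-ps10 and Rps12-ps3 were 2.08 to 3.25 times higher in the mean of wt mice 1 and 2 than in that of wt mice 3 and 4, and the functional genes summed were 2.74 times higher. This ratio was 1.02 for Rps2-ps10, which was at a low level in wt mice, and 1.00 for Rpl36a-ps2.

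The functional ribosomal protein genes gave no call in any comparison. All 79 were tested each time. By edgeR 0 of the 79 had an adjusted p under 0.05 in TKO against wt, TKO against Zmat3-/- or Zmat3-/- against wt, and 0, 2 and 0 had an unadjusted p under 0.05. Of all tested genes, 1370, 591 and 2175 had an unadjusted p under 0.05. DESeq2 called 0, and gave 0, 1 (Rps2) and 0 an adjusted p under 0.05. Without wt mice 1 and 2, 78 of the 79 lay above 0 in TKO and in Zmat3-/- against wt, and 28 and 76 had an adjusted p under 0.05 by edgeR. Without wt mice 3 and 4, 78 lay below 0 in each, and 71 and 77 had an adjusted p under 0.05, so the direction depended on which wt mice were in the fit. None of the 79 was called in these fits. Of all genes, 245 and 676 were called in TKO and 439 and 733 in Zmat3-/- against wt. How many of all genes passed the adjusted p alone in these fits is not given here. With all mice, their median log2FC was -0.41, -0.12 and -0.30, that of the tested copies was -0.42 (15 copies), -0.13 (14) and -0.52 (14), and that of all tested genes was -0.04, -0.01 and -0.03. In Zmat3-/- against wt, the median of the 79 was 0.58 without wt mice 1 and 2 and -0.85 without wt mice 3 and 4, and that of the 12 tested copies of parents off chromosome 17 was 0.40 and -0.91. These medians describe genes that passed a filter on their level, and copies share reads with their parents.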

How the data were processed

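RNA of thymocytes was measured in 4 wt, 4 Zmat3-/- and 3 TKO mice, grouped by genotype label. The authors pseudo-aligned reads to GRCm38 with Salmon (nf-core/rnaseq, GENCODE vM25) and deposited estimated counts per gene. All values were whole, so rounding changed none. Names, positions and transcripts came from GENCODE M21 (GRCm38), which 54166 of 54418 genes matched. A further 10 member symbols of that annotation were not analysed here.

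Each pair of genotypes was fitted in edgeR 4.0.16 under R 4.3.3 (TMM, quasi-likelihood test, two-sided, Benjamini-Hochberg over all tested genes), leaving out Xist, chromosome Y, ribosomal RNA and immunoglobulin pseudogenes. Calls needed an adjusted p under 0.05 and an absolute log2FC above 1.5. The SE is the absolute log2FC over the root of F. CPM used TMM factors over 11 mice, and permutation tests log2 CPM (prior count 2). The study's methods used DESeq2 with sex and surrogate variables; DESeq2 1.42.0 and sva 3.50.0 served as alternatives, as did RLE size factors, filters, a shared fit, the Xist level and left-out mice. Words of 31 bases were counted on either strand, and copies were aligned with Biopython 1.88.

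Named copies were those of Rps2, called copies, copies of chromosome 17 parents and the 10 with the highest mean CPM. Members, lists and tests were chosen with earlier results of these data known. Replicate numbers come from the titles. Between Zmat3-/- and wt mice, deviations of same-numbered mice correlated at 0.127 to 0.338 (mean 0.256), which was taken as pairing. The other comparisons fell short by their lowest value (0.072 and 0.011), though the mean for TKO against wt was 0.26. The labels state no pairs, and same-numbered Zmat3-/- and wt mice also matched in a high or low Xist level.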

Additional observations from a re-analysis of the deposited data

Results flagged for a closer look

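Among 70 groups of 4 mice checked (levels and shares of the tested copies in wt and Zmat3-/- mice), 2 had a mouse far from the others. Chance alone also flags some groups, at a rate that was not tested here. The level and the share of a copy come from the same counts, so the groups are not independent. Both concern Rps13-ps1 in wt mouse 2, which had 3.00 CPM and a share of 0.418% of the counts of Rps13 plus Rps13-ps1, while the other 3 wt mice had 0. Groups of 3 TKO mice were not checked.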

How the results depend on the processing

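Rps2-ps10 and Rps2-ps6 were called in both TKO comparisons under every alternative run, including each mouse left out. The log2FC of Rps2-ps10 ranged from 4.92 to 5.19 against wt and from 5.85 to 6.14 against Zmat3-/-, and that of Rps2-ps6 from 4.94 to 6.25 and from 5.29 to 5.40. Members called stayed at 2, 2 and 0 when a mouse was left out. Between Zmat3-/- and wt, 2 members were called without wt mice 1 and 2 (Rpl36a-ps1, named for that, and Rps12-ps3 with a reversed log2FC of 12.2 against wt mice that both had 0 counts) and 1 (Rps12-ps3) without wt mice 3 and 4, alternatives chosen after seeing the data.

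The count of all genes called moved more. In TKO against wt the 32 became 103 with DESeq2, 51 with no filter, 70 with all 3 genotypes in a single fit, 19 with 1 surrogate variable, and 245 and 676 without wt mice 1 and 2 or 3 and 4; in TKO against Zmat3-/- the 16 became 45 with no filter and 29 with no threshold on the log2FC. In Zmat3-/- against wt the 43 became 122 with DESeq2, 71 in a single fit, 159 with 1 surrogate variable, 103 with no threshold on the log2FC, and 439 and 733 without those pairs of wt mice. With a mouse left out, the counts were 15 to 35 in TKO against wt (15, 15 and 17 without TKO mice 1, 2 and 3) and 12 to 47 in Zmat3-/- against wt (25 and 20 without wt mice 3 and 4, and 12, 14, 13 and 12 without Zmat3-/- mice 1 to 4). In the fits that took the replicate numbers as blocks, the calls were 16 in TKO against wt, 15 in TKO against Zmat3-/- and 8 in Zmat3-/- against wt, and the members called stayed at 2, 2 and 0; only 2 of 3, 1 of 3 and 3 of 4 numbers correlated best with their own. Per exon length, the Rps2 copies took 34.9%, 0.784% and 1.29% of their family in TKO, Zmat3-/- and wt mice. The causes of these moves were not tested.

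Estimated counts do not show which reads were shared between copy and parent, so levels of exact copies cannot be told apart from those of their parents. Copies under the filter were tested in the fit with no filter, in which the members called were 2, 2 and 0.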
